A study of Mus musculus with 12 samples.

Results

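Chemokines and their receptors were followed across WAT, BAT, liver and quadriceps muscle of chow-fed, obese and narciclasine-treated mice. The genes were all symbols of the deposited expression table that begin with Ccl or Cxcl (ligands) or with Ccr or Cxcr (receptors) followed by a number and, for ligands, at most 1 letter. The rule found 48 of 22276 symbols, namely 19 CC ligands, 12 CXC ligands, 10 CC receptors and 7 CXC receptors. Membership rests on the symbol and on no measured value. Of the 48 genes, 31 reached 1 FPKM (sequenced fragments scaled to transcript length and library depth) in at least 1 of 12 libraries, 22 of them ligands and 9 receptors. The other 17 stayed below that level throughout, and Ccl1 and Ccl20 were listed at 0 in all 12 libraries.

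The samples came from male C57BL/6J mice of 17 weeks of age. NCD-veh mice ate normal chow, whereas HFD-veh and HFD-ncls mice were fed a high-fat diet from 8 weeks of age. From 10 weeks of age, HFD-ncls mice received narciclasine (ncls), a plant alkaloid, and the other groups received vehicle (veh). Each organ and group gave 1 RNA-seq library, and the number of mice behind a library is not given in the sources used here. Chow-fed mice given ncls were not analysed here, so ncls is seen only on the high-fat diet. Without replicates there is no spread between animals and no test, so every comparison below describes single libraries. HFD-veh libraries enter both the diet and the ncls comparison, which are therefore not independent of each other. Depth was estimated from the steps between low FPKM values at about 18200000 to 25600000 fragments a library. Organ labels fitted their defining genes. A list of 4 white adipocyte genes summed to 5041 to 5565 FPKM in WAT, Ucp1, the uncoupling protein of brown fat, stood at 739.6 to 769.8 FPKM in BAT against 2.38 to 3.92 in WAT, 5 hepatocyte genes summed to 29033 FPKM or more in liver, and 5 skeletal muscle genes to 64765 FPKM or more in muscle.

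Chemokines are small secreted proteins that bind to matrix and cell surfaces and guide the migration of leukocytes along concentration gradients. They are named CC or CXC after the spacing of conserved cysteines, and they act on G-protein-coupled receptors of the Ccr and Cxcr families, most of which are carried by leukocytes. In obese adipose tissue the Ccr2 ligands are best known for recruiting monocytes, which become tissue macrophages.

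WAT held the highest level of most members. Of the 31 genes that reached 1 FPKM, 23 had their highest mean over the 3 libraries in WAT, 4 in BAT, 3 in liver and 1 in muscle. Among all 13648 genes that reached 1 FPKM, WAT was the highest organ for 58.1%, BAT for 10.5%, liver for 16.8% and muscle for 14.6%. For 20 of the 23 WAT genes the lowest WAT library lay above every library of the next organ, as it did for 79.3% of all genes highest in WAT. Summed over the 31 ligands, the level was 412 (NCD-veh), 639 (HFD-veh) and 627 FPKM (HFD-ncls) in WAT, and 67.8, 109 and 82.4 FPKM in BAT. Liver sums were 189, 157 and 148 FPKM, and muscle sums 39.3, 53.4 and 48.9 FPKM. Receptor sums were 86.1, 76.8 and 89.8 FPKM in WAT and 6.50, 15.9 and 12.1 FPKM in BAT, but at most 2.73 FPKM in liver and 6.39 FPKM in muscle. Values below follow the same order of groups unless stated. In whole tissue, fewer cells of a type and less RNA per cell cannot be told apart, and this holds for every level given here.

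**Figure D1:**
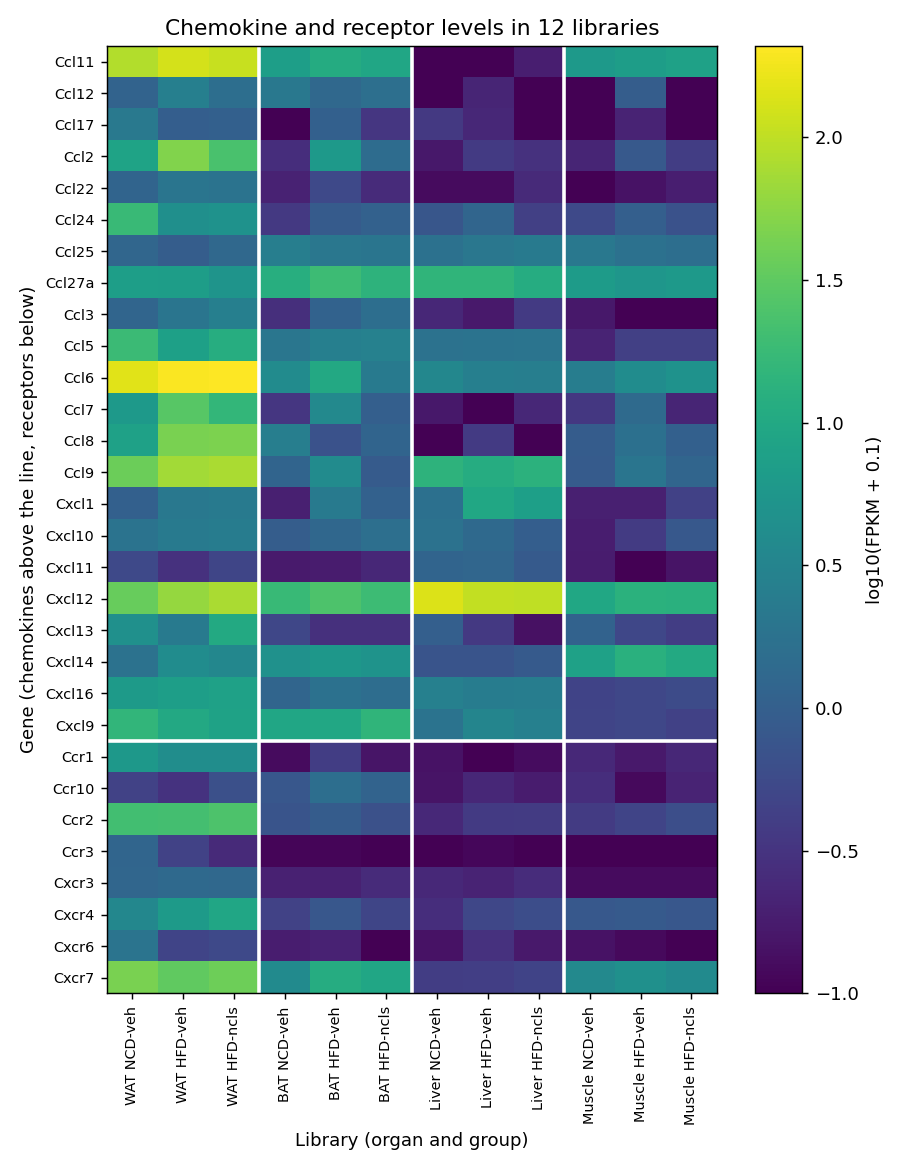
Levels of chemokine and chemokine receptor genes that reached 1 FPKM, as log10(FPKM + 0.1), in 12 libraries (columns, ordered by organ and within each organ as chow, high-fat diet and high-fat diet with ncls). The WAT columns hold the highest means of most genes, while Cxcl12 is highest in liver and Cxcl14 in muscle.

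Different ligands led in different organs. In WAT the leading gene was Ccl6, a Ccr1 ligand of myeloid cells, at 146, 198 and 209 FPKM, or 35.5%, 30.9% and 33.3% of the ligand sum. Its mean in WAT was 34.6 times that in BAT. Ccl11, the eosinophil attractant eotaxin, followed at 87.7, 128 and 109.6 FPKM, and Ccl9, another Ccr1 ligand, at 37.97, 72.3 and 78.5 FPKM. In the other organs Cxcl12, the stromal ligand of Cxcr4 and Cxcr7 that holds blood cell precursors in the marrow, was the first ligand. It stood at 141, 105 and 100.3 FPKM in liver, which was 66.6% to 74.7% of the liver ligand sum, and its lowest liver library lay above its highest WAT library (79.1 FPKM). In BAT it stood at 17.2, 24.9 and 18.7 FPKM and in muscle at 9.48, 12.9 and 12.7 FPKM.

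Several ligands were not WAT genes. Cxcl14, a ligand expressed by epithelia and muscle, was highest in muscle at 7.90, 12.8 and 10.3 FPKM, above all 3 BAT libraries (4.71 to 5.60 FPKM). Ccl27a, known as a skin ligand of Ccr10, had its highest means in BAT (14.8 FPKM) and liver (13.7 FPKM), with overlapping ranges. The annotated Ccl27a gene overlaps Il11ra1, and near-identical copies of it exist in the mouse genome, so its reads are uncertain. Cxcl9, an interferon-induced ligand of Cxcr3, had means of 11.2 FPKM in both WAT and BAT (15.2, 10.1 and 8.18 FPKM, against 9.13, 9.71 and 14.9 FPKM), and these ranges also overlapped. Ccl25, a thymus and gut ligand of Ccr9, lay between 0.844 and 2.56 FPKM in all 12 libraries. WAT was its lowest organ, at 0.844 to 1.24 FPKM, below every library of the other organs (1.48 FPKM or more), whose ranges overlapped.

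Of the receptors, 8 of 9 had their highest mean in WAT, and of the ligands 15 of 22, a difference that was not tested. All 8 had WAT ranges above those of the next organ, which the same 79.3% of all WAT genes had. Cxcr7, which takes up Cxcl12, was the leading receptor in WAT (44.4, 32.7 and 38.9 FPKM), BAT (3.81, 11.3 and 9.09 FPKM) and muscle (3.54, 4.61 and 3.76 FPKM). Ccr2, the receptor of inflammatory monocytes, was next in WAT at 20.8, 21.1 and 24.4 FPKM, 32.8 times its mean in BAT. The exception was Ccr10, highest in BAT at 0.691, 1.49 and 1.04 FPKM, where its gene overlaps Cntnap1. No receptor reached 1 FPKM in liver, so the organ with the highest Cxcl12 had Cxcr4 at no more than 0.510 FPKM and Cxcr7 at no more than 0.363 FPKM.

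In WAT, ligands of Ccr2 and Ccr8 were far higher in HFD-veh than in NCD-veh mice. No receptor with at least 1 FPKM in either library was over 2-fold higher, though Cxcr4 was 1.84-fold higher. Of 29 members with at least 1 FPKM in 1 of both libraries, 6 were over 2-fold higher in HFD-veh (20.7%), against a background of 5.24% of 12208 genes, and 5 were over 2-fold lower (17.2%), against 3.87%. Folds are ratios of FPKM + 0.1, which understates the differences of low genes. The filter can admit a gene through its higher library alone, as with Cxcl1, Cxcr6, Ccr3 and Ccl17 here. Shares past 2-fold are therefore partly set by the filter, for members and all genes alike and in every comparison below. The median log2 difference was 0.35 over the 29 members and 0.03 over all genes. All 6 of the higher members were ligands. Among 21 ligands the median was 0.54, and among 8 receptors, none of which was over 2-fold higher and 2 of which were lower, it was -0.21.

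The higher ligands were led by neighbours in the genome. Ccl2, Ccl7, Ccl11, Ccl12 and Ccl8 lie in this order on chromosome 11 of mm9, from 81849073 (first base of Ccl2) to 81930301 (last base of Ccl8), all on the plus strand. Ccl2, the monocyte attractant MCP-1, stood at 8.22, 49.3 and 22.8 FPKM. Ccl7, a further Ccr2 ligand, followed the same order of libraries at 6.18, 28.9 and 15.9 FPKM, and Ccl12, the mouse Ccr2 ligand MCP-5, at 1.05, 2.58 and 1.49 FPKM. For these 3 genes the HFD-veh library was the highest and the HFD-ncls library lay between the others. In HFD-veh against NCD-veh, Ccl2 was 5.94-fold, Ccl7 4.62-fold and Ccl12 2.32-fold higher. The 3 summed to 15.5, 80.8 and 40.2 FPKM, next to a Ccr2 level of 20.8 to 24.4 FPKM in the same libraries. The Ccl2 gene overlaps the annotated gene Gm17268, and Ccl12 rested on about 11.6, 27.3 and 14.6 fragments.

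Ccl8 behaved otherwise. This ligand, which in mice acts on Ccr8, stood at 7.84, 44.6 and 46.1 FPKM in WAT, so that both HFD libraries were high and differed little. It was 5.63-fold higher in HFD-veh than in NCD-veh. Its receptor Ccr8 was near the detection limit, at 0.138 and 0.0473 FPKM in NCD-veh and HFD-veh WAT and listed at 0 in HFD-ncls WAT. Ccl11, in the middle of the cluster and with Ccr3 as its receptor, was 1.46-fold higher in HFD-veh, under the 2-fold threshold. The 5 neighbours thus had log2 differences of 2.57 (Ccl2), 2.21 (Ccl7), 0.54 (Ccl11), 1.21 (Ccl12) and 2.49 (Ccl8).

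A pair of CXC ligands was also over 2-fold higher. Cxcl14 stood at 1.70, 4.03 and 3.36 FPKM in WAT, 2.29-fold higher in HFD-veh than in NCD-veh. Cxcl1, the neutrophil attractant KC that acts on Cxcr2, stood at 0.940, 2.06 and 2.19 FPKM, 2.07-fold higher. It was the member just inside the threshold (log2 difference 1.05), and Ccl9 (0.93) was the one just outside. Cxcr2 stayed at or below 0.0813 FPKM in all WAT libraries, and the other ligands of Cxcr2, Cxcl2, Cxcl3 and Cxcl5, did not reach 1 FPKM in any library.

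The 5 lower members included ligands and receptors known from eosinophils and lymphocytes. Ccl24, the eosinophil attractant eotaxin-2, stood at 17.8, 4.40 and 4.83 FPKM, and was 3.98-fold lower in HFD-veh than in NCD-veh. Ccr3, the eotaxin receptor, stood at 1.11, 0.352 and 0.145 FPKM (about 74.6, 22.8 and 8.7 fragments), 2.68-fold lower. For both genes NCD-veh was the only high library. Cxcr6, a receptor of effector and resident T cells, stood at 1.79, 0.373 and 0.439 FPKM (about 69.3, 14 and 15.2 fragments), 3.99-fold lower. Its ligand Cxcl16 stood at 6.37, 7.22 and 7.95 FPKM. The Cxcr6 and Cxcl16 genes overlap Fyco1 and Zmynd15. Ccl5, the T cell ligand RANTES, stood at 18.1, 7.71 and 11.6 FPKM, 2.33-fold lower. Ccl17, a Ccr4 ligand of dendritic cells, was 2.28-fold lower, at 2.12, 0.871 and 0.957 FPKM (about 22.2, 8.8 and 8.9 fragments). Ccl22, the other Ccr4 ligand, in the same cluster of chromosome 8, had its lowest value in the same NCD-veh library in which Ccl17 was highest, at 1.09, 1.85 and 1.76 FPKM.

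**Figure D2:**
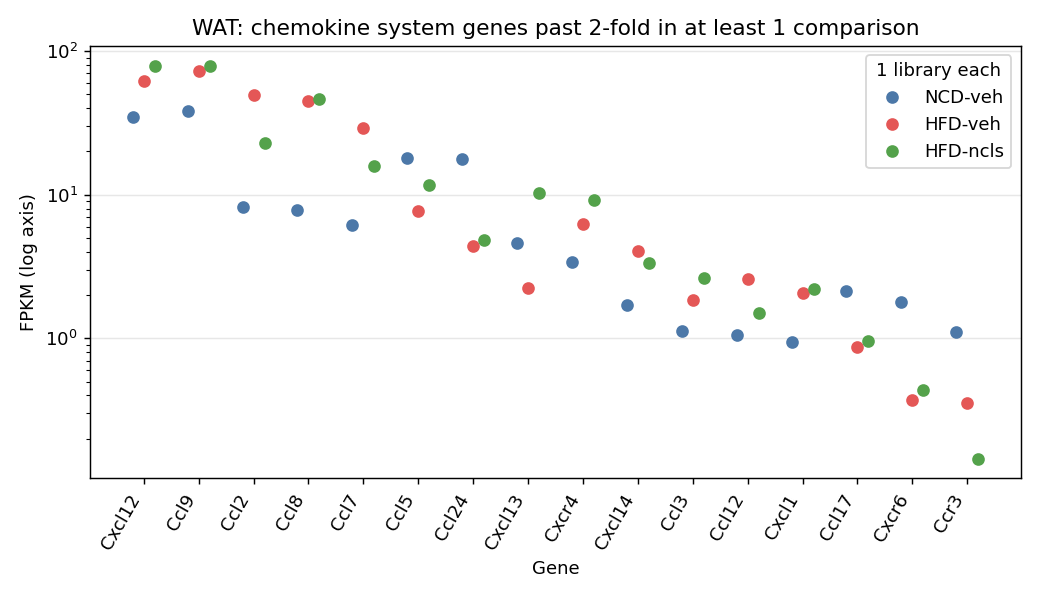
FPKM (log axis) in WAT of the 16 members past 2-fold in at least 1 of the 3 WAT comparisons, with 1 point for each group. Ccl2, Ccl7 and Ccl12 have their highest point in HFD-veh, Ccl8 is high in both HFD libraries, and Ccl24, Ccr3, Cxcr6 and Ccl17 are high only in NCD-veh.

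The other receptors and ligands that passed the filter in WAT differed by less than 2-fold between HFD-veh and NCD-veh. Ccr1 stood at 5.75, 4.10 and 4.14 FPKM. Cxcr4 stood at 3.37, 6.29 and 9.22 FPKM and its ligand Cxcl12 at 34.9, 61.5 and 79.1 FPKM, so that both were lowest in NCD-veh and highest in HFD-ncls. Cxcr3, a receptor of activated T cells, stood at 1.15, 1.25 and 1.23 FPKM, and its ligands Cxcl9, Cxcl10 and Cxcl11 summed to 17.4, 12.6 and 10.96 FPKM. The annotation used here lists Cxcl11 as a processed transcript and not as protein-coding, so its RNA may not stand for a working ligand.

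Leukocyte markers differed between the same WAT libraries. The 9 macrophage genes of a fixed list summed to 689, 931 and 1151 FPKM, and 3 of 8 that passed the filter (Emr1, Cd68 and Itgax) were over 2-fold higher in HFD-veh than in NCD-veh, with none lower, against 5.24% of all genes higher. Cd68 stood at 49.5, 198 and 222 FPKM and Itgax at 2.79, 20.4 and 22.7 FPKM, while the macrophage colony-stimulating factor receptor Csf1r stood at 57.2, 64.8 and 65.2 FPKM. Clec4f, the Kupffer cell marker of the list, was listed at 0 in NCD-veh WAT and at no more than 0.0901 FPKM in the others. Both Cd68 and Itgax were as high in HFD-ncls as in HFD-veh or higher, unlike Ccl2. The 7 T cell genes summed to 11.7, 5.25 and 7.23 FPKM, and 2 of 3 that passed (Cd3g and Lck) were over 2-fold lower in HFD-veh, against 3.87% of all genes. The 5 B cell genes summed to 10.5, 2.76 and 8.19 FPKM, and all 3 that passed were over 2-fold lower, against the same 3.87%. Of the neutrophil genes, S100a8 stood at 4.19, 34.7 and 35.5 FPKM and S100a9 at 2.62, 5.07 and 0.523 FPKM. The 4 dendritic cell genes summed to 11.3, 12.1 and 11.4 FPKM, and the 4 genes of lymph node stroma to 2.60, 0.854 and 1.35 FPKM. The 3 fibroblast genes summed to 1060.1, 623 and 716 FPKM, and Dcn, at 948.9, 461 and 529 FPKM, was over 2-fold lower in HFD-veh. The estimated share of liver RNA was 0.0227%, 0.109% and 0.330%, and subtracting it, with the muscle share, left the counts of WAT members past 2-fold at 6 and 5 for diet and 1 and 1 for ncls. These shares made up at most 1.12% of any WAT member at 1 FPKM or more, so the subtraction could hardly change a count. The part of cell composition in the chemokine differences was not tested.

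**Figure D3:**
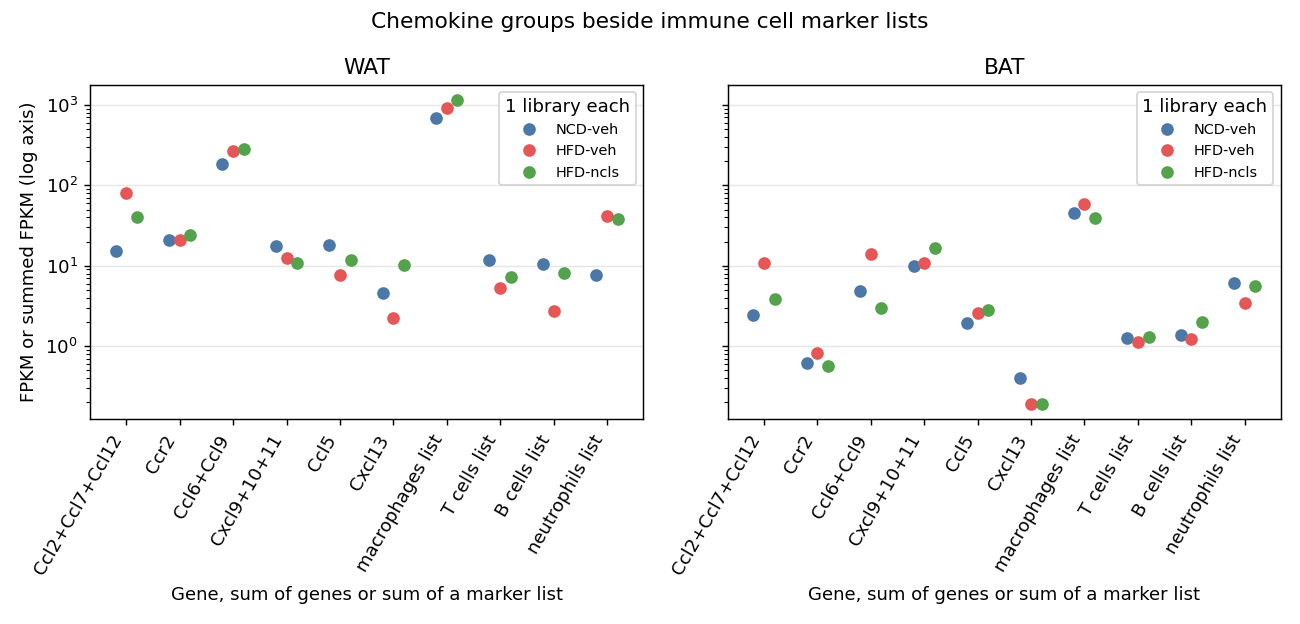
FPKM (log axis) of single chemokine genes, summed chemokine groups and summed leukocyte marker lists in the 3 WAT and the 3 BAT libraries, with 1 point a library. In WAT the Ccr2 ligands went 15.5, 80.8 and 40.2 FPKM and the macrophage list 689, 931 and 1151 FPKM, and in BAT they went 2.42, 10.9 and 3.87 FPKM and 45.1, 58.5 and 39.0 FPKM.

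Few members differed over 2-fold between HFD-ncls and HFD-veh WAT. Of 26 that passed the filter, 1 was higher in HFD-ncls (Cxcl13, 3.85%, against a background of 1.49% of 12152 genes) and 1 was lower (Ccl2, 3.85%, against 0.214%). The median log2 difference was 0.07 over members and 0.04 over all genes. Ccl2 was 2.15-fold lower with ncls. The next members below it were its neighbours Ccl7, 1.82-fold lower (log2 difference -0.86), and Ccl12, 1.68-fold lower (-0.75). Ccl8, in the same cluster, had a log2 difference of 0.05.

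Cxcl13, the ligand that draws B cells into follicles through Cxcr5, stood at 4.57, 2.26 and 10.3 FPKM, resting on about 110, 52.3 and 220 fragments. It was 4.40-fold higher with ncls, and HFD-veh was the lowest of the 3 WAT libraries. Cxcr5 followed the same order of libraries at 0.617, 0.224 and 0.801 FPKM, below the filter. The B cell genes Cd79a (3.82, 0.922 and 2.91 FPKM) and Cd79b (4.05, 1.40 and 3.39 FPKM) were also lowest in HFD-veh. Both were over 2-fold higher after ncls, against 1.49% of all genes. So was Cd3g, 1 of 2 T cell genes that passed, and the difference was thus not limited to B cell genes. The part of these lymphocyte genes in the Cxcl13 difference was not tested.

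Set against chow-fed mice, HFD-ncls WAT had 9 of 29 members over 2-fold higher (31.0%, against a background of 7.11% of 12357 genes) and 4 over 2-fold lower (13.8%, against 2.48%). Of the Ccr2 ligands, Ccl2 was 2.76-fold and Ccl7 2.54-fold higher than in NCD-veh, and Ccl8 was 5.82-fold higher. Cxcr4 (2.68-fold), Cxcl12 (2.26-fold), Cxcl13 (2.22-fold), Cxcl1 (2.20-fold), Ccl3 (2.23-fold) and Ccl9 (2.06-fold) made up the rest, and of these only Cxcl1 was also past 2-fold in HFD-veh against NCD-veh. Ccl3, a Ccr1 ligand of macrophages, stood at 1.12, 1.84 and 2.62 FPKM. The lower members were Ccr3, Ccl24, Cxcr6 and Ccl17, all of which were also over 2-fold lower in HFD-veh than in NCD-veh.

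Upstream sequences are given for 4 of the ligands discussed, all of which hold a motif marked in capitals. Promoters without a match, such as that of Cxcr6, are not shown. The promoter of Ccl9 is not shown either, though it holds TATAAA at -92 to -87 and an NF-κB match at -35 to -26 from the start. RefSeq promoters (build GRCm38.p6), which run from 250 bases before the start to 50 bases after it, matched 32 of 48 members with 36 promoters, and Ccl2, Ccl7 and Ccl11 had no entry. The lines show only the 250 bases before the start, 5′ to 3′ on the gene's strand, which is the plus strand for all 4. Capitals mark TATAAA in Ccl8 (chr11:82114935-82115184), Ccl12 (chr11:82101595-82101844) and Cxcl13 (chr5:95956689-95956938). In Cxcl1 (chr5:90890995-90891244) they mark the NF-κB consensus, found on both strands with matches that overlap by all but 1 base at each end.
Ccl8: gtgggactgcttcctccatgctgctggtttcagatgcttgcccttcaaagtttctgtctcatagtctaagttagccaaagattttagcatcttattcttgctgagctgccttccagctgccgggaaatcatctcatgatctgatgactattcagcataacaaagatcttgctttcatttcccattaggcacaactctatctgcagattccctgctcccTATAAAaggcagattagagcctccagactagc
Ccl12: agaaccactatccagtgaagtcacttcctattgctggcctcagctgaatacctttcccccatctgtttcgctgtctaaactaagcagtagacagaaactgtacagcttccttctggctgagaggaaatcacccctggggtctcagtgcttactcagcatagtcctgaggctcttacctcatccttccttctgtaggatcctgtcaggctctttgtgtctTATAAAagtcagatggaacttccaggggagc
Cxcl13: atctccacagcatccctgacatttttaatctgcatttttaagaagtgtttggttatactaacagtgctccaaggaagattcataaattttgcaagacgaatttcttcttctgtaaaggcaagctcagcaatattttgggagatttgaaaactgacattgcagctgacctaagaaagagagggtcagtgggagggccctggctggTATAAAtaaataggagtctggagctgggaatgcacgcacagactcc
Cxcl1: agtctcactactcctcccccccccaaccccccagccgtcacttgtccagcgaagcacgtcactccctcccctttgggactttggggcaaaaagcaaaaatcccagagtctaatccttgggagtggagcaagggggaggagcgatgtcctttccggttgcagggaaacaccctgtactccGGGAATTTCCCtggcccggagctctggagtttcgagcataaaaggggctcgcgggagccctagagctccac

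TATAAA began 32 bases before the start in Ccl8 (position -32), at -31 in Ccl12 and at -46 in Cxcl13, and the NF-κB matches of Cxcl1 covered positions -71 to -61. Searched on both strands over the whole RefSeq entries, TATAAA occurred in 8 of 36 member promoters and in 13.6% of all 32851 promoters. The NF-κB consensus, the site of the transcription factor family that many inflammatory signals activate, occurred in 11 of 36 and in 8.46%. The AP-1 site TGANTCA occurred in 7 of 36 and 7.81%, and the Sp1 core GGGCGG in 8 of 36 and 35.7%. The 11 members with an NF-κB match were Ccl1, Ccl9, Ccl20, Ccl27a, Ccr1, Ccr3, Ccr6, Cxcl1, Cxcl2, Cxcl3 and Cxcl10. They include genes listed at 0 throughout (Ccl1 and Ccl20) and genes lower in HFD-veh WAT (Ccr3), and a match is a description of the letters and not of binding.

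In BAT the ligands Ccl2, Ccl7 and Cxcl1 were over 2-fold higher in HFD-veh mice, from levels near the detection limit. Of 18 members that passed the filter, 7 were over 2-fold higher in HFD-veh than in NCD-veh (38.9%, against a background of 2.28% of 10444 genes), and 1 was lower (5.56%, against 2.01%). Ccl2, Ccl7, Cxcl1 and Ccr10 passed only through HFD-veh, where they were high, so the count of higher members partly rests on the filter. The median log2 difference was 0.57 over members and -0.04 over all genes. Ccl2 stood at 0.175, 6.14 and 1.40 FPKM (about 4.9, 166 and 37.5 fragments). Ccl7 stood at 0.236, 3.51 and 0.924 FPKM and Cxcl1 at 0.0941, 2.21 and 0.984 FPKM. For all 3, HFD-veh was the highest library and NCD-veh the lowest. The differences in HFD-veh were 22.7-fold for Ccl2, 11.9-fold for Cxcl1 and 10.7-fold for Ccl7, where the NCD-veh library held only about 4.9, 2.3 and 4.8 fragments, so that these ratios are imprecise. Even in HFD-veh, Ccl2 in BAT remained below its level in NCD-veh WAT (8.22 FPKM).

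A further cluster on chromosome 11 holds Ccl5, Ccl9, Ccl6, Ccl3 and Ccl4 between bases 83339280 and 83478185, and of these Ccl6 and Ccl9 were also over 2-fold higher. Ccl6 stood at 3.84, 9.92 and 2.23 FPKM in BAT and Ccl9 at 1.08, 3.92 and 0.791 FPKM, 2.54-fold and 3.40-fold higher in HFD-veh than in NCD-veh. For both, HFD-ncls was the lowest library. Their neighbour Ccl5 stood at 1.93, 2.57 and 2.80 FPKM, within 2-fold, and Ccl3 and Ccl4 were below the filter. The Ccl6 gene overlaps the annotated gene E230016K23Rik. Of the receptors, Cxcr7 (3.81, 11.3 and 9.09 FPKM) was 2.92-fold and Ccr10 2.01-fold higher in HFD-veh, and no other receptor reached 1 FPKM in BAT. Ccl8 was the lower member, at 2.51, 0.596 and 1.07 FPKM (about 32.7, 7.5 and 13.4 fragments), 3.75-fold lower in HFD-veh. Ccl12 stood at 2.005, 1.21 and 1.55 FPKM, so that HFD-veh was the lowest BAT library for both genes while it was the highest for Ccl2 and Ccl7 of the same cluster.

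In HFD-ncls BAT, 5 of 19 members were over 2-fold lower than in HFD-veh (26.3%, against a background of 1.7% of 10331 genes) and none was higher (against 0.261%). These were Ccl9 (4.51-fold), Ccl6 (4.30-fold), Ccl2 (4.16-fold), Ccl7 (3.52-fold) and Cxcl1 (2.13-fold), all of which were among the 7 higher in HFD-veh than in NCD-veh. Both differences use the same HFD-veh library. In the ncls comparison Ccl9, Ccl7 and Cxcl1 passed the filter only through that library. The median log2 difference between HFD-ncls and HFD-veh was -0.24 over members and -0.02 over all genes. Set against NCD-veh, HFD-ncls BAT had 3 of 17 members over 2-fold higher (17.6%, against 1.36% of 10365 genes), namely Ccl3, Ccl2 and Cxcr7, and 1 lower (5.88%, against 2.74%), Ccl8. Ccl3 stood at 0.179, 0.999 and 1.501 FPKM, highest in HFD-ncls.

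Marker genes also differed between the BAT libraries. Macrophage genes summed to 45.1, 58.5 and 39.0 FPKM, and Cd68, at 3.62, 9.15 and 2.60 FPKM, was over 2-fold higher in HFD-veh than in either other library. The other 5 macrophage genes that passed did not differ over 2-fold between HFD-veh and NCD-veh. Over all genes, 2.28% were higher in HFD-veh than in NCD-veh and 1.7% were lower with ncls. Skeletal muscle genes summed to 1435, 580.4 and 86.2 FPKM. All 5 were over 2-fold lower at each step, against 2.01% and 1.7% of all genes. The estimated share of muscle RNA was 2.34%, 1.12% and 0.282%. Subtracting it, with the liver share, left the counts of BAT members past 2-fold at 7 and 1 for diet and 0 and 5 for ncls. These shares made up at most 3.92% of any BAT member at 1 FPKM or more, so the subtraction could hardly change a count. The part of the macrophage genes in the chemokine differences was not tested.

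**Figure D4:**
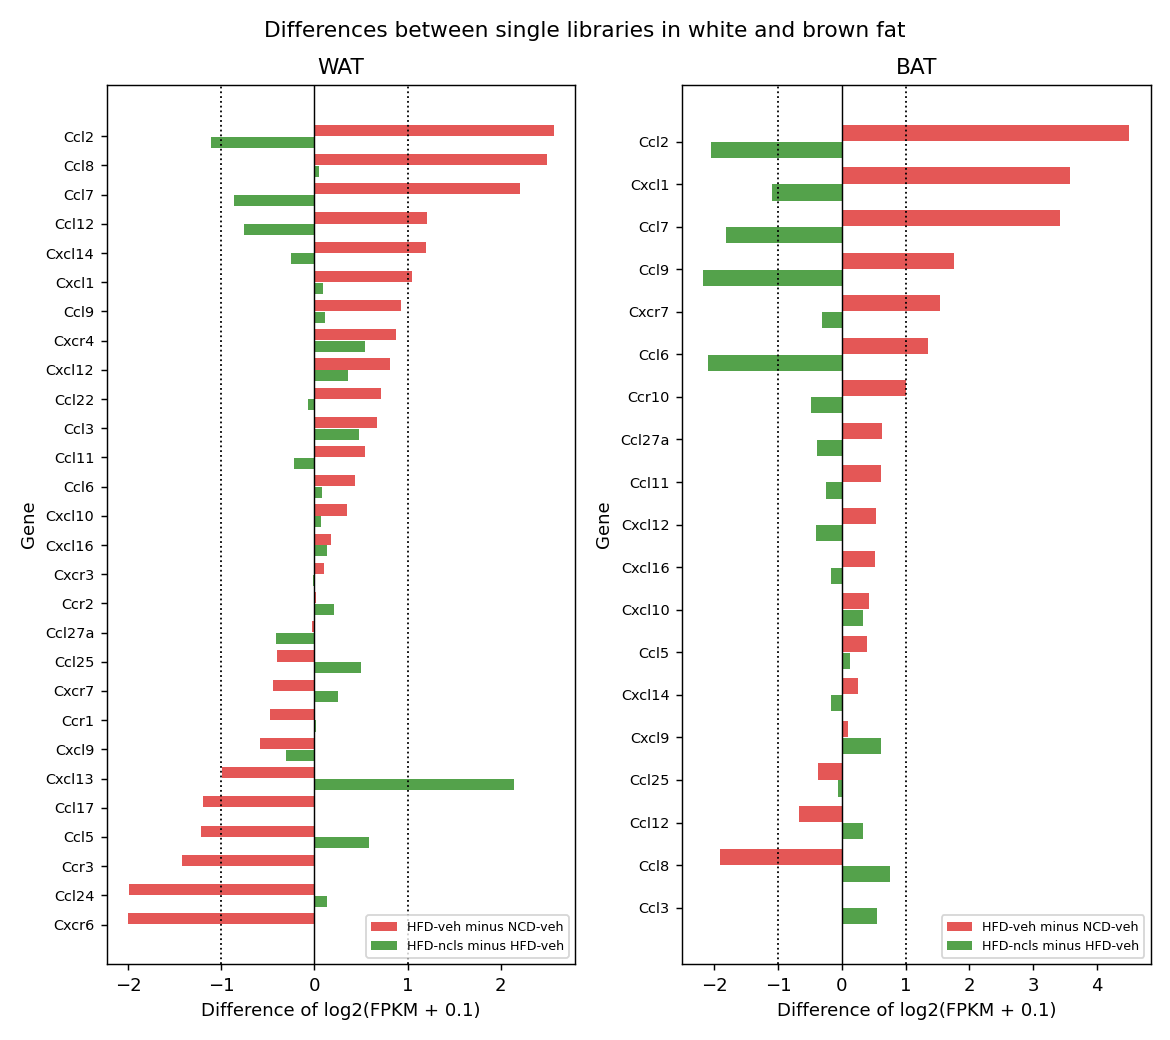
Log2 differences of FPKM + 0.1 for HFD-veh against NCD-veh and HFD-ncls against HFD-veh, in WAT and BAT. Ccl2 and Ccl7 point up with diet and down with ncls in both fats, whereas Ccl8 points up with diet in WAT (2.49) and down in BAT (-1.91).

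Liver differed little in its chemokines apart from Cxcl1. Of 12 members that passed, 1 was over 2-fold higher in HFD-veh than in NCD-veh (8.33%, against a background of 2.86% of 10016 genes) and none was lower (against 2.27%). Cxcl1 stood at 1.57, 9.31 and 7.30 FPKM (about 34.7, 199 and 162 fragments), so that both HFD libraries were high, and it was 5.62-fold higher in HFD-veh. Between HFD-ncls and HFD-veh, 1 of 12 was lower (8.33%, against 1.31% of 9956 genes) and none higher (against 1%). This was Ccl24, at 0.684, 1.13 and 0.324 FPKM (about 20.4, 32.6 and 9.7 fragments), 2.89-fold lower in HFD-ncls. It passed the filter only through HFD-veh. Ccl9, the ligand next to Cxcl12 and Ccl27a in liver, stood at 14.04, 11.2 and 13.7 FPKM. Median log2 differences were 0.02 and -0.14 for diet and ncls over members, and 0.04 and 0.02 over all genes. Set against NCD-veh, HFD-ncls liver had 1 of 11 members over 2-fold higher, again Cxcl1 (9.09%, against 2.58% of 9961 genes), and none lower (against 2.62%).

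In muscle, 2 of 10 members that passed were over 2-fold higher in HFD-veh than in NCD-veh (20%, against a background of 3.14% of 9587 genes) and none was lower (against 0.97%). Ccl7 stood at 0.247, 1.29 and 0.120 FPKM, on about 4.8, 26.5 and 2.4 fragments, and Ccl9 at 0.805, 1.85 and 1.11 FPKM. Ccl7 was 4.02-fold and Ccl9 2.16-fold higher in HFD-veh. Both were below 1 FPKM in NCD-veh and passed the filter only through HFD-veh, the library in which they were high. The count therefore rests on the same values as the calls. Ccl7 was also the 1 of 10 members over 2-fold lower with ncls (10%, against 2.53% of 9694 genes), at 6.35-fold, and none was higher (against 1.27%). So few fragments make both Ccl7 ratios imprecise, and Ccl7 entered the ncls comparison, too, only through HFD-veh. The same HFD-veh muscle library also stood highest for genes of other organs, with 19.5, 46.3 and 29.0 FPKM over the white adipocyte list and 16.2, 209 and 7.79 FPKM over the hepatocyte list. Liver RNA made up an estimated 5.47% of its Cxcl12 level, the largest such share of any member at 1 FPKM or more in any library. After subtraction of this liver share, the log2 difference between HFD-veh and NCD-veh was 2.01 for Ccl7 and 1.05 for Ccl9. The part of adipocyte RNA was not tested. Median log2 differences were 0.56 and -0.20 for diet and ncls over members, and 0.03 and 0.04 over all genes. Between HFD-ncls and NCD-veh muscle, 0 of 8 members differed over 2-fold, against 0.893% of 9516 genes higher and 0.315% lower.

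Genes of the pathway outside the naming rule were followed as 3 fixed lists. Of 14 further chemokine system genes, 12 were in the table and 9 passed the filter in WAT, where Cx3cr1, the fractalkine receptor, was over 2-fold higher in HFD-veh than in NCD-veh (0.481, 1.19 and 1.65 FPKM, against 5.24% of all genes higher) and Ccbp2, the scavenger of CC ligands, was over 2-fold lower (1.14, 0.291 and 0.966 FPKM). In BAT 3 of 4 that passed were over 2-fold higher, against 2.28% of all genes, among them Pf4, the CXC ligand of platelets and macrophages (3.56, 9.05 and 5.73 FPKM), and Cx3cl1, fractalkine itself (1.25, 3.79 and 3.29 FPKM). Of 21 upstream cytokines and regulators, 16 passed in WAT and only Ltb differed over 2-fold between HFD-veh and NCD-veh, being lower, against 3.87% of all genes (1.87, 0.556 and 1.00 FPKM). The NF-κB subunit Rela stood at 26.8, 29.6 and 28.6 FPKM and its inhibitor Nfkbia at 37.3, 34.0 and 53.9 FPKM. Of 19 genes of chemokine signal transduction, 18 passed in WAT, where Pik3r5, Dock2 and Rgs1 were over 2-fold higher in HFD-veh, against 5.24% of all genes, and none was lower. Rgs1, which shortens signalling from chemokine receptors, stood at 0.778, 11.04 and 15.6 FPKM, and Dock2, which drives leukocyte movement, at 7.15, 14.5 and 14.6 FPKM. In each of these, as in Ccl8, both HFD libraries were high.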

How the data were processed

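The data were 12 RNA-seq libraries, 1 for each of 4 organs in each of 3 groups. TopHat (alignment to mm9) and Cufflinks (quantification of RefSeq genes) were used by the authors, who deposited FPKM per gene symbol. Further scaling between libraries and strandedness are not given in the sources used here, so genes overlapping others are uncertain. Genes without a value in a library (86 symbols, no member) were left out. FPKM is not a count, so no count-based test was applied, and 1 library per group allows no test. Differences were taken on log2(FPKM + 0.1) for genes with at least 1 FPKM in at least 1 of both libraries, and called past 2-fold. Members, marker lists and pathway lists were chosen with earlier results of these data known. Named genes were members past 2-fold in WAT, the 3 largest differences per direction in the other organs, the 5 highest members of each organ and members known from obese fat. How often the filter and threshold miscall genes near 1 FPKM was not tested. The values of 1 member, which enters the counts and sums, are not reported here.

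Fragments behind a value were estimated from the lowest steps of FPKM and transcript lengths of GENCODE vM1, and are approximate. Gene coordinates are from the same annotation (mm9), and promoters from RefSeq. Of the members, 46 matched 1 annotated gene, Ccl25 matched more than 1, and Ccl28 matched none. Shares of liver and muscle RNA were medians over genes with at least 100 FPKM in that organ and 20 times the level elsewhere. Computations used Python 3.11.15, numpy 2.4.6, pandas 2.3.3 and matplotlib 3.10.9.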

Additional observations from a re-analysis of the deposited data

Results flagged for a closer look

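Ccl8 pointed in opposite directions in WAT and BAT. Between HFD-veh and NCD-veh its log2 difference was 2.49 in WAT (44.6 against 7.84 FPKM) and -1.91 in BAT (0.596 against 2.51 FPKM, about 7.5 against 32.7 fragments). With 1 library per group the difference between the organs was not tested. It stood out because every library of 1 organ lay on the opposite side of its control from that of the other.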

How the results depend on the processing

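No paired analysis was possible because each organ and group has 1 library and no replicate numbers are shared. For the same reason no replicate could be left out. No direction reversed under any alternative. With a pseudocount of 1, WAT members over 2-fold higher and lower in HFD-veh than in NCD-veh numbered 3 and 3 (from 6 and 5), those lower in HFD-ncls than in NCD-veh 1 (from 4), liver members lower with ncls 0 (from 1), and muscle members higher in HFD-veh 0 (from 2). With a filter of 5 FPKM these counts were 3 and 2, 1, 0 and 0, BAT members higher and lower in HFD-veh were 3 and 0 (from 7 and 1), those lower with ncls 2 (from 5), and the muscle count lower with ncls 0 (from 1). Without a filter, WAT members higher and lower with ncls were 4 and 2 (from 1 each), BAT members higher in HFD-veh 14 and lower with ncls 9, liver members 6 and 3 for diet (from 1 and 0) and 3 and 6 for ncls (from 0 and 1), and muscle members 7 and 2 for diet (from 2 and 0) and 2 and 4 for ncls (from 0 and 1). Rescaling by the median ratio added 1 lower muscle member for diet, Cxcl13, whose NCD-veh level then passed the filter. By the median of the 3 libraries instead of the mean, 2 members (from 4) were highest in BAT and 5 (from 3) in liver. A pseudocount of 1 took 14 of 65 named differences across 2-fold, and rescaling took 2. Subtracting liver and muscle RNA moved none of 65, and none of 22 counts by over 1.5 times. It could hardly do so, as such RNA was an estimated 5.47% at most of any member at 1 FPKM or more. The median of all genes stayed within 0.1 of 0 on the log2 scale in every comparison. Depth limits genes under about 1 FPKM, which rest on few fragments.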

Other observations

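Among 16 upstream cytokines and regulators that passed the filter in HFD-ncls and HFD-veh WAT, 1 was over 2-fold higher with ncls. Of all 12152 genes in this comparison, 1.49% were. Il6, the inflammatory cytokine interleukin 6, was listed at 0 in NCD-veh, at 0.0510 FPKM in HFD-veh and at 1.51 FPKM in HFD-ncls WAT. Below the filter, Tnf, tumour necrosis factor, chosen after its values were seen, was at no more than 0.000269 FPKM in the other WAT libraries and at 0.580 FPKM in HFD-ncls, while Il1b stood at 0.546, 0.321 and 0.485 FPKM. Ccl2 was lower in that same HFD-ncls library than in HFD-veh, and Cxcl2, a neutrophil attractant, was at 0.398, 0.564 and 0.816 FPKM, below the filter.

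Ccl26, an eotaxin gene next to Ccl24, was listed at 0 in every library outside WAT. It stood at 0.520 and 0.534 FPKM in NCD-veh and HFD-veh WAT, on only about 3.0 fragments each. In HFD-ncls WAT it was listed at 0. With so few fragments, a value of 0 does not show absence.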
